A study of Mus musculus with 4 samples.

Results

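Apoptosis and survival genes were examined in regulatory CD4 T cells sorted from mice at 7 days after they were immunized (NP-OVA, complete Freund's adjuvant). Of 43 listed genes, 39 had an array probe annotated to exactly 1 gene symbol, out of 22180 genes measured in this way, and each gene was represented by its brightest probe on average. Bax, Trp53, Ripk1 and Traf3 were not analysed here. The series comprised 4 samples, each hybridized to 1 Affymetrix Mouse Gene 2.0 ST array. KO TFR cells were follicular regulatory T cells (PD1+, CXCR5+, YFP+) of mice with floxed Prdm1 alleles and the Foxp3 YFP-Cre allele, and WT TFR cells were the same sorted population of mice that carried the YFP-Cre allele alone. KO non-TFR cells and WT non-TFR cells were the YFP+ cells without CXCR5 of the same genotypes. YFP and Cre were thus present in all 4 groups, both driven from Foxp3, so that deletion of Prdm1, which encodes the repressor Blimp-1, is directed to Foxp3-expressing cells in the KO mice. The labels give neither age nor sex, nor how many mice went into an array.

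Apoptosis follows a mitochondrial and a death receptor route. In the mitochondrial route, BH3-only proteins such as Bim (Bcl2l11) neutralize Bcl-2, Bcl-xL (Bcl2l1) and Mcl-1, which frees the pore formers Bax and Bak1 to release cytochrome c, and Apaf1 then activates caspase-9. In the receptor route, Fas and the TRAIL receptor (Tnfrsf10b) act through Fadd and caspase-8, which Cflar holds in check, while caspase-1 and caspase-4 (the mouse gene is also called caspase-11) serve inflammatory death. Regulatory T cells are known to depend on Mcl-1 for survival and to be limited in number by Bim.

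Levels are log2 values after quantile normalization of the deposited table, and a difference is the level on one array minus that on another. With 1 array in each group, none of the differences has a replicate check or a test, and the arrays cannot tell fewer expressing cells from less RNA per cell. Genes were called expressed where the 4-array mean exceeded 5.91, the median over all measured genes. This held for 37 of the 39 members and for 11090 genes in all, and Bmf and Hrk lay below it. Members were counted as apart at 1.5-fold (0.585 on the log2 scale) or more. The count over all expressed genes serves as background, because nothing else gives the scatter between arrays.

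For Prdm1, the gene deleted in KO mice, the level was 7.32 in KO TFR and 8.21 in WT TFR cells, and 7.59 in KO non-TFR and 7.80 in WT non-TFR cells. Whether its probes lie within the deleted part is not known here, so these values are a limited check of the labels. The T cell genes Cd3e, Cd3g and Cd4 and the lineage factor Foxp3 lay between 11.0 and 13.0 on all arrays. Of the genes behind the sort, Cxcr5 had levels of 10.39 in KO TFR, 9.52 in WT TFR, 8.90 in KO non-TFR and 8.06 in WT non-TFR cells. Pdcd1, which encodes PD1, had levels of 10.68 in KO TFR, 9.86 in WT TFR, 8.96 in KO non-TFR and 7.44 in WT non-TFR cells. Both were thus above the expression limit in the cells sorted as lacking CXCR5, and both were higher in KO than in WT cells of each population. Among markers of other cells, the myeloid genes Lyz2, Csf1r and Adgre1 and the B cell genes Ms4a1, Cd79a and Cr2 lay below the expression limit on all 4 arrays, while the myeloid gene Cd68, the B cell gene Cd79b and the CD8 T cell gene Cd8b1 lay above it on all 4. Deposited array medians ran from 5.58 to 5.69.

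The clearest pattern among the members was carried by 4 genes, all of the pro-death class. Casp1 and Casp4 were higher, and Dapk1 and Bcl2l11 lower, in KO than in WT cells of both populations, and in TFR than in non-TFR cells in mice of both genotypes. Their upstream sequences are shown because these are the members at least 1.5-fold apart between genotypes for which a promoter was at hand. Each is the stretch of 250 bases before a RefSeq transcription start, 5′ to 3′ on the gene's own strand, which is the plus strand in all cases (GRCm38.p6). The intervals are chr9:5298267-5298516 for Casp1, chr9:5308599-5308848 for the more upstream of the starts of Casp4, chr2:128125788-128126037 and chr2:128127325-128127574 for the starts of Bcl2l11, and chr13:60601961-60602210 for Dapk1. Capitals mark GAAAG (or CTTTC on the other strand), a core that Blimp-1 is known to bind and that interferon regulatory factors share, and GTAAACA (or TGTTTAC), the forkhead core known from the FOXO factors.
Casp1: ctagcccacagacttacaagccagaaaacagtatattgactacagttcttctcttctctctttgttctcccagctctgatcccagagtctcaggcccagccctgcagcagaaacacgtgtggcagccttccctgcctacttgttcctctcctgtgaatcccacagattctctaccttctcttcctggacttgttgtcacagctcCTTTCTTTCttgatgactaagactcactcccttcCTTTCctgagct
Casp4: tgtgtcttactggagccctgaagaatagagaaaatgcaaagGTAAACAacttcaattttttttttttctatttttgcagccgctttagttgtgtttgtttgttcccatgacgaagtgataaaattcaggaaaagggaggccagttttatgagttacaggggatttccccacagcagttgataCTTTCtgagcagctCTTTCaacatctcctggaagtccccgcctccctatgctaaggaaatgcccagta
Bcl2l11, upstream start: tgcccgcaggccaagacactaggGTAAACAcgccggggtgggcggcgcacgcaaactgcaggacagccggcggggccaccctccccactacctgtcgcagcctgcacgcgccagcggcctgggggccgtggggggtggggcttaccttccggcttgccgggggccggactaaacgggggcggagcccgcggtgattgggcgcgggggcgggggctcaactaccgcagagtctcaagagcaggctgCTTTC
Bcl2l11, downstream start: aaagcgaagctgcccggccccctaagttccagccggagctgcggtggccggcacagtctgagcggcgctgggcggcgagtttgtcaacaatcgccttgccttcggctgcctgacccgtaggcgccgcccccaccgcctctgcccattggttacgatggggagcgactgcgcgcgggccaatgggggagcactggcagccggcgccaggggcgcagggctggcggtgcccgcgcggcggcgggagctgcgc
Dapk1: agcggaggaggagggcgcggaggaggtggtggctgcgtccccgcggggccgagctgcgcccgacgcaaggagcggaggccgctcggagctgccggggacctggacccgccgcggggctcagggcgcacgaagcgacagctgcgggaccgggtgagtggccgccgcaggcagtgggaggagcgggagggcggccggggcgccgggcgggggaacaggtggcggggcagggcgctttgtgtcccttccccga
GAAAG occurred 3 times in the Casp1 stretch, where a pair of copies overlaps, 2 times in that of Casp4 and once before the upstream start of Bcl2l11, and was absent before its downstream start and from Dapk1. The stretch before the other start of Casp4, which is not shown, held 3 copies. GAAAG is a common string, present in 51.5% of all 32851 such stretches and in 41.5% of the 53 stretches of members (22 stretches, 19 genes). GTAAACA occurred once in the Casp4 stretch and once before the upstream start of Bcl2l11, and was found in 3.17% of all stretches and in 6 of the 53 of members. No copies of GAAAG and GTAAACA overlapped in the stretches shown. GC content was 49.2% and 41.6% in the caspase stretches, 72.0% and 73.2% in those of Bcl2l11 and 78.4% in that of Dapk1. These matches describe letters only, and binding was not measured.

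**Figure D1:**
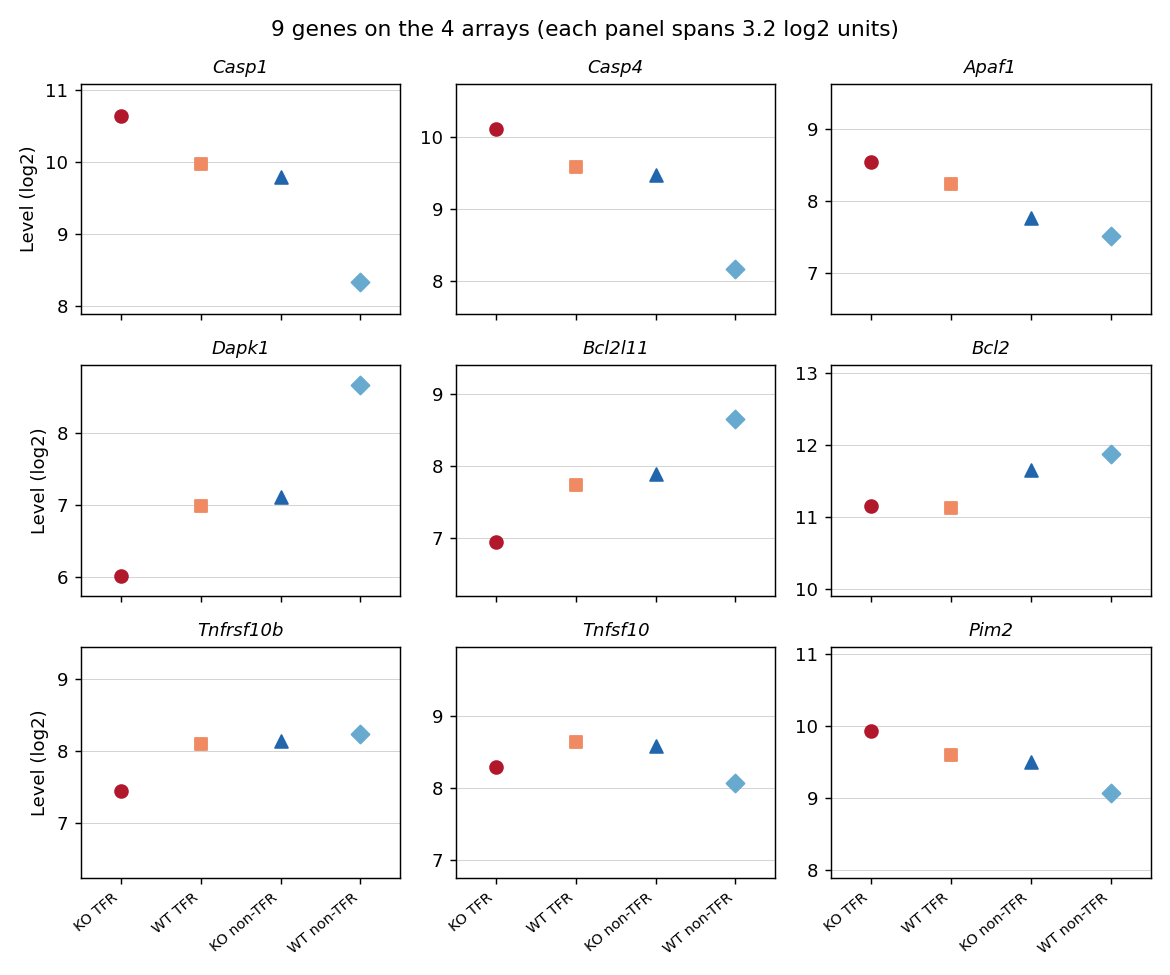
Levels of 9 members on the 4 arrays (y axis, log2 level after quantile normalization; x axis, sample; 1 point per array, no error bars since there is 1 array per group). Casp1, Casp4 and Apaf1 step down from KO TFR to WT non-TFR, Dapk1 and Bcl2l11 step up, and Tnfsf10 is lowest in WT non-TFR cells.

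Caspase-1 cleaves the precursor of interleukin-1β within inflammasomes. The level of Casp1 was 10.64 in KO TFR cells, 9.97 in WT TFR cells, 9.79 in KO non-TFR cells and 8.33 in WT non-TFR cells. Between neighbouring levels in this order, the widest gap lay between KO non-TFR and WT non-TFR cells (1.46, 2.75-fold), and KO TFR cells stood 0.67 above WT TFR cells. Casp4, the sensor of cytosolic lipopolysaccharide in the mouse, had levels of 10.11 in KO TFR, 9.58 in WT TFR, 9.47 in KO non-TFR and 8.17 in WT non-TFR cells. Its order over the arrays was that of Casp1, and also that of the sort genes Cxcr5 and Pdcd1, whose part in these differences was not tested. Casp1 and Casp4 are adjacent protein-coding genes on chromosome 9 in the RefSeq annotation of GRCm38.p6. Casp12, the gene after Casp4, was not expressed by the limit used and had genotype differences of 0.03 in TFR and 0.07 in non-TFR cells. Casp12 was looked up after the values of its neighbours were seen.

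Dapk1 encodes a calcium/calmodulin-regulated death-associated kinase. Its level was 6.01 in KO TFR cells, 6.99 in WT TFR cells, 7.12 in KO non-TFR cells and 8.67 in WT non-TFR cells, the widest range of any member at 2.65. The KO TFR value lay close to the expression limit of 5.91. Bcl2l11, the BH3-only gene Bim, had levels of 6.94 in KO TFR, 7.74 in WT TFR, 7.88 in KO non-TFR and 8.65 in WT non-TFR cells. In each of these 4 genes the WT TFR and KO non-TFR arrays lay next to each other, within 0.11 to 0.18 log2 units. Every comparison that uses the WT non-TFR array takes up its extreme values, so the differences below are not separate observations.

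A level that falls in the order KO TFR, WT TFR, KO non-TFR, WT non-TFR was found in 8 of 37 expressed members (21.6%) and in 15.6% of expressed genes. The opposite order was found in 11 members (29.7%) and in 11.0% of expressed genes. Members in either order with a range of at least 1 log2 unit were Casp1, Casp4, Apaf1, Dapk1 and Bcl2l11 (13.5%, against 5.96% of expressed genes). This order was singled out after the values were seen. Of the 39 members, 21 had a range under 0.5 over the 4 arrays, a share that was not counted over expressed genes. The median range was 0.47 among the 39 members and 0.41 among expressed genes. A range of at least 1 was found in 13.5% of expressed members and in 9.33% of expressed genes.

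**Figure D2:**
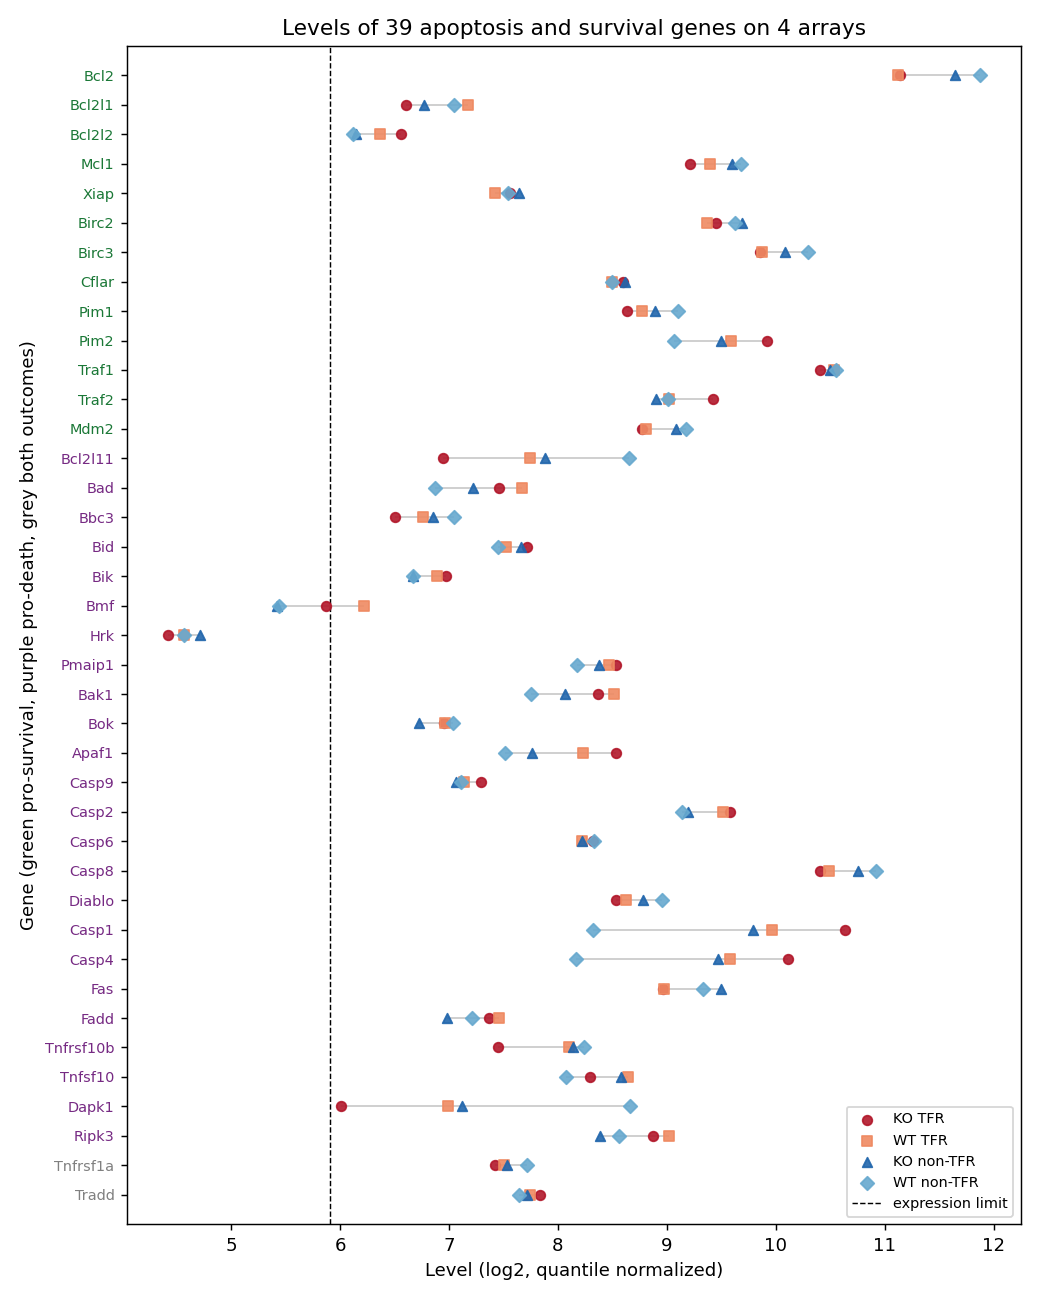
Levels of the 39 measured members (x axis, log2 level after quantile normalization; y axis, genes grouped by role, names coloured by class; 1 marker per array; the dashed line is the expression limit of 5.91). Casp1, Casp4, Dapk1 and Bcl2l11 have the widest spans, Cflar, Casp6 and Traf1 are nearly level, and Hrk lies below the limit on every array.

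The first comparison asked how follicular regulatory cells differ with the Prdm1 genotype. In KO TFR against WT TFR cells, 3 of 37 expressed members (8.11%) were at least 1.5-fold lower, where 1.56% of expressed genes were, and 1 (2.7%) was at least 1.5-fold higher, where 2.16% of expressed genes were. The lower members were Dapk1 (difference -0.98, 1.97-fold lower), Bcl2l11 (-0.80, 1.74-fold) and Tnfrsf10b (-0.65), and the higher was Casp1 (0.67). Dapk1 had rank 30 and Bcl2l11 rank 69 from the lowest among the 11090 expressed genes. No member was 2-fold apart, where 0.442% of expressed genes were 2-fold higher and 0.234% 2-fold lower. With centring on the 75th percentile Dapk1 stood at -1.004, just past 2-fold. The median difference was -0.01 over the members and 0.02 over expressed genes.

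Among BH3-only genes in TFR cells the lower value of Bcl2l11 was not shared by all. Bmf, which links cell detachment to Bcl-2 and was dim, differed by -0.35, Bbc3, which encodes the p53-induced protein Puma, by -0.26, and Bad by -0.21, whereas Bid was 0.19 and Pmaip1, which encodes Noxa, 0.06 higher. The antiapoptotic genes were unevenly placed. Bcl2l1 had levels of 6.61 in KO TFR and 7.17 in WT TFR cells, a difference of -0.57 just short of 1.5-fold (-0.60 and past it with quantile normalization over single-gene probes), and Mcl1 had levels of 9.21 in KO TFR and 9.40 in WT TFR cells. Bcl2 was level at 11.14 in KO TFR and 11.13 in WT TFR cells, and Bcl2l2 was 0.20 higher. Its second, dimmer probe put Bcl2 at 5.17 in KO TFR and 5.49 in WT TFR cells, below the expression limit.

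All 4 measured genes of death ligands, receptors and adaptors had lower values in KO TFR cells, by amounts from -0.01 for Fas to -0.65 for Tnfrsf10b, which alone passed 1.5-fold. Of the 11090 expressed genes, 5114 were lower in this comparison. Of 6 further death ligand and receptor genes, 4 were lower and 2 higher. Among their ligand genes Fasl differed by -1.24, while Tnf (0.14) and Lta (0.18) were slightly higher. Tnfrsf10b, the mouse TRAIL receptor, had a level of 7.45 in KO TFR cells, and lay at 8.10 in WT TFR, 8.14 in KO non-TFR and 8.24 in WT non-TFR cells. The KO TFR array alone was low for it. Its ligand Tnfsf10 (TRAIL) had levels of 8.29 in KO TFR and 8.64 in WT TFR cells. Traf2, an adaptor that recruits the cellular inhibitors of apoptosis to TNF receptors, stood at 9.43 in KO TFR cells and between 8.90 and 9.02 on the other arrays, 0.41 higher than in WT TFR cells. Pim2, a kinase that sustains lymphocyte survival, was 0.33 higher, and its relative Pim1 differed by -0.14.

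The same genotype comparison in non-TFR cells gave the wider differences of Casp1, Casp4 and Dapk1. In KO non-TFR against WT non-TFR cells, 2 of 37 expressed members (5.41%) were at least 1.5-fold higher, with 3.69% of expressed genes as background, and 2 (5.41%) were at least 1.5-fold lower, with 1.09% as background. Casp1 (1.46 higher, rank 10 from the highest) and Casp4 (1.30, 2.47-fold, rank 22) were also more than 2-fold higher, as 0.775% of expressed genes were. Dapk1 differed by -1.55 (2.93-fold lower, rank 4 from the lowest), and 0.126% of expressed genes were 2-fold lower. Bcl2l11 differed by -0.77 (1.70-fold lower, rank 48). The median over the members was -0.05, against 0.03 over expressed genes.

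Other members moved less in non-TFR cells. Tnfsf10 had levels of 8.58 in KO non-TFR and 8.07 in WT non-TFR cells, 0.51 higher. Pim2 was 0.43 higher, at 9.49 in KO non-TFR and 9.06 in WT non-TFR cells, and followed the order of Casp1 over the 4 arrays. The BH3-only gene Bad was 0.35 and the pore former Bak1 0.31 higher, and the related gene Bok differed by -0.31. Bcl2l1 (-0.28), Bcl2 (-0.23), Birc3 (-0.21) and Pim1 (-0.21) had the lowest values among pro-survival members.

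**Figure D3:**
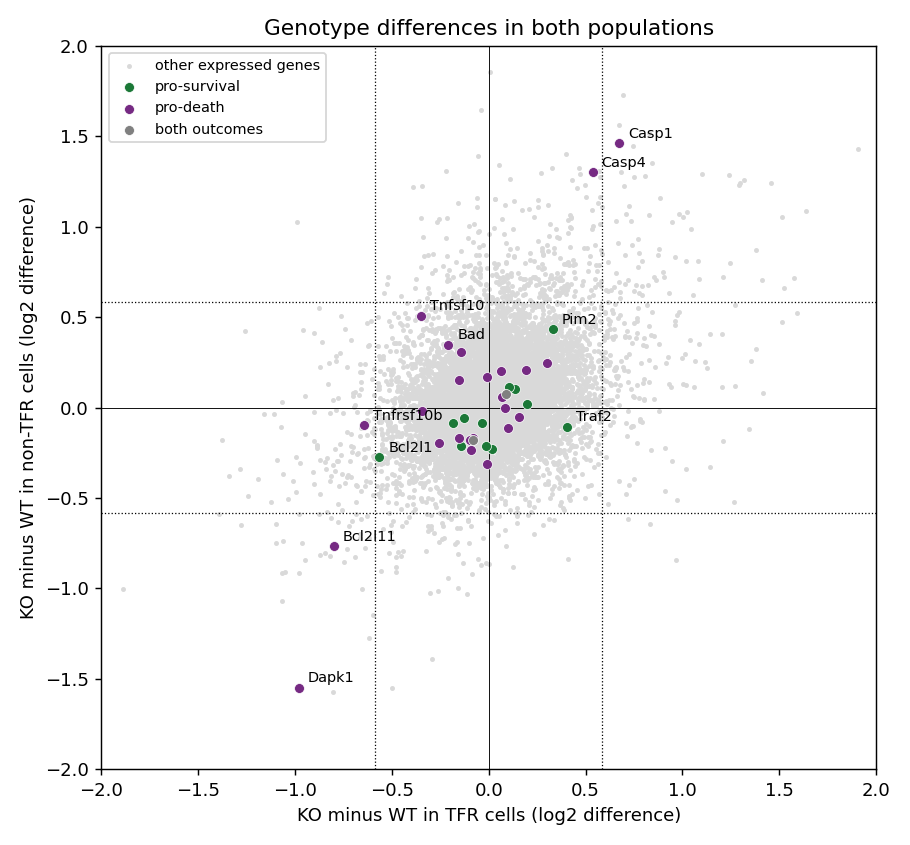
Genotype differences (KO minus WT, log2) in TFR cells on the x axis and in non-TFR cells on the y axis; coloured points are the 39 members by class, grey points the other expressed genes (7 lie outside the axes), dotted lines mark 1.5-fold. Casp1 and Casp4 lie at the upper right, Dapk1 and Bcl2l11 at the lower left, and Tnfrsf10b is low on the x axis only.

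The genotype comparisons in TFR and non-TFR cells share no array. Over the 39 members the correlation of their differences was 0.72 by Pearson's r and 0.46 by Spearman's rho, and 29 members had the same sign in both (74.4%, against 59.5% of expressed genes). Across expressed genes r was 0.35. Without Casp1, Casp4, Dapk1 and Bcl2l11 the r over the other 35 members was 0.22, and 25 of them had the same sign (71.4%). Those genes have large differences of the same direction in both comparisons, so leaving them out was bound to lower r. The r across expressed genes was not trimmed in this way. The points are genes on the same 4 arrays, not replicates.

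The population comparison in WT mice asked what separates follicular from other regulatory cells. In WT TFR against WT non-TFR cells, 5 of 37 expressed members (13.5%) were at least 1.5-fold higher, where 10.3% of expressed genes were, and 3 (8.11%) at least 1.5-fold lower, where 5.76% were. These shares lay near the background, so the counts do not set the members apart. As deposited, on a scale where the median of expressed genes was 0.13, 7 members were higher and 3 lower, against 13.6% and 3.87% of expressed genes. Of the expressed genes 1.5-fold apart, 64.2% were higher after quantile normalization and 77.9% as deposited. Casp1 was 1.64 higher (3.11-fold) and Casp4 1.41 higher (2.66-fold), and 4.13% of expressed genes were 2-fold higher. Bad (0.80), Bak1 (0.76) and Apaf1 (0.72) were the other higher members. Dapk1 differed by -1.68 (3.19-fold lower), where 1.36% of expressed genes were 2-fold lower, followed by Bcl2l11 (-0.91, 1.88-fold) and Bcl2 (-0.75, 1.68-fold).

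Bak1 and Apaf1 act downstream of the BH3-only proteins, at the mitochondrial pore and in the apoptosome. The level of Bak1 was 8.37 in KO TFR, 8.52 in WT TFR, 8.06 in KO non-TFR and 7.76 in WT non-TFR cells, with both TFR arrays above both non-TFR arrays. Apaf1 had levels of 8.53 in KO TFR, 8.23 in WT TFR, 7.76 in KO non-TFR and 7.51 in WT non-TFR cells, again with both TFR arrays higher. The share of expressed genes with this separation was not counted, so it does not set Bak1 and Apaf1 apart. Casp9, which Apaf1 activates, lay between 7.06 and 7.29 on all arrays. The initiator Casp2 was 0.38 higher in the TFR cells of either genotype. Casp8 and the IAP antagonist Diablo were lower in WT TFR than in WT non-TFR cells, by -0.43 and -0.33.

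Bcl2 had levels of 11.14 in KO TFR, 11.13 in WT TFR, 11.65 in KO non-TFR and 11.87 in WT non-TFR cells, lower in the TFR arrays than in the non-TFR arrays of both genotypes, and the dimmer probe for Bcl2 had the same direction. Mcl1 (-0.29 in WT, -0.39 in KO mice) and Birc3 (-0.42 and -0.23), which encodes an inhibitor of apoptosis, were also lower in TFR cells, as were Mdm2, the ubiquitin ligase that restrains p53, and Pim1. A dimmer probe for Mcl1 had the same direction. A dimmer probe for Pim1, below the expression limit on every array, had the opposite direction (0.30 in WT, 0.29 in KO mice). Pim2 was higher (0.53 in WT, 0.43 in KO mice). Of the IAP and Cflar group, Birc2 and Birc3 had negative population differences in both genotypes under each normalization tried, while Cflar (-0.01 in WT, -0.02 in KO mice) and Xiap (-0.11 and -0.08) turned positive under some, Xiap as deposited in KO mice. Xiap, the direct caspase inhibitor, and Cflar varied by no more than 0.22 over the 4 arrays.

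In KO mice, 3 of 37 expressed members (8.11%) were at least 1.5-fold higher in KO TFR than in KO non-TFR cells, where 8.54% of expressed genes were, and 3 (8.11%) at least 1.5-fold lower, where 6.2% were. These shares were again close to the background. As deposited, with a median of expressed genes of 0.14, 5 members were higher and 2 lower, against 12.7% and 3.78% of expressed genes. The higher share of expressed genes 1.5-fold apart was 57.9% after quantile normalization and 77.0% as deposited. The higher members were Casp1 (0.85), Apaf1 (0.77) and Casp4 (0.64), and the lower were Dapk1 (-1.10, 2.15-fold), Bcl2l11 (-0.94, 1.92-fold) and Tnfrsf10b (-0.69, or -0.55 and short of 1.5-fold as deposited). Of expressed genes 3.03% were 2-fold higher and 1.37% 2-fold lower, and among the members Dapk1 passed 2-fold (-0.98 and short of it as deposited). Fas, the receptor of Fas ligand, had levels of 8.96 in KO TFR and 9.50 in KO non-TFR cells, a difference of -0.54, and one of -0.36 in WT mice. The necroptosis kinase Ripk3 was 0.48 higher in KO and 0.47 higher in WT TFR cells than in their non-TFR counterparts.

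The population comparisons share no array either. Over the members the correlation was 0.85 by Pearson's r and 0.83 by Spearman's rho, and 34 of 39 had the same sign (87.2%, against 76.4% of expressed genes). Across expressed genes r was 0.80.

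**Figure D4:**
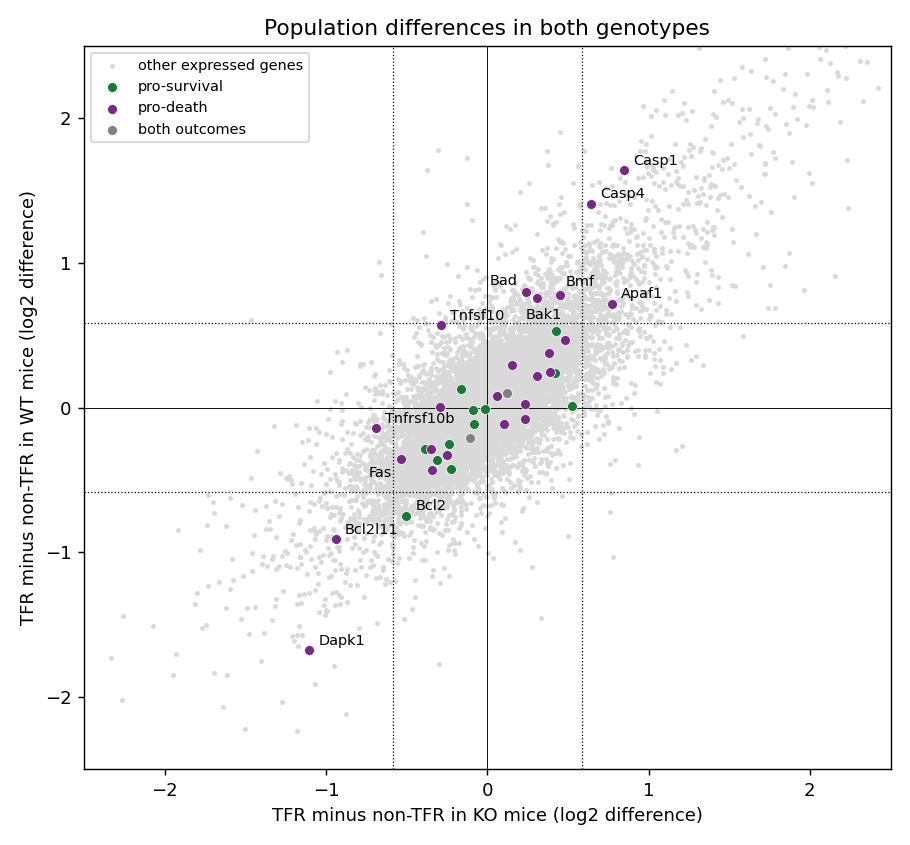
Population differences (TFR minus non-TFR, log2) in KO mice on the x axis and in WT mice on the y axis; coloured points are the 39 members by class, grey points the other expressed genes (48 lie outside the axes), dotted lines mark 1.5-fold. Most members lie along the diagonal of all genes, with Casp1 and Casp4 high and Dapk1 and Bcl2l11 low in both, and Tnfsf10 positive in WT and negative in KO mice.

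Pro-survival members (13 measured) were then set against pro-death members (24 measured). Tnfrsf1a and Tradd, which serve both outcomes, stood apart, with differences between -0.21 and 0.12 in the 4 comparisons. In WT TFR against WT non-TFR cells the median difference was -0.11 over pro-survival and 0.15 over pro-death members (pro-survival minus pro-death -0.26), with 9 of 13 pro-survival members lower and 15 of 24 pro-death members higher. In KO mice the medians were -0.16 over pro-survival and 0.19 over pro-death members (-0.36), with 10 of 13 pro-survival members lower and 15 of 24 pro-death members higher. As deposited, without quantile normalization, 7 of 13 pro-survival members were lower in either genotype and 17 of 24 pro-death members higher in WT mice (12 with quantile normalization over single-gene probes), and the medians of the classes were as far apart (-0.27 in WT, -0.37 in KO mice). Of expressed genes, 52.4% were higher in WT and 51.6% in KO TFR cells after quantile normalization, with medians of 0.02 and 0.01. As deposited, these medians were 0.13 in WT and 0.14 in KO mice, and the share of expressed genes that were higher was not counted.

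Between genotypes the medians of the full classes differed less. In KO TFR against WT TFR cells the medians were 0.02 for pro-survival and -0.09 for pro-death members, with 15 of 24 pro-death members lower, in a comparison where 5114 of 11090 expressed genes were lower. In KO non-TFR against WT non-TFR cells they were -0.09 for pro-survival and -0.01 for pro-death members (-0.08), but pro-survival minus pro-death was -0.23 over the BCL2 family alone and -0.25 over the brighter members, those past the 75th percentile of all genes. The pro-death class held the largest differences in both directions, so its median says little about Casp1, Casp4, Dapk1 or Bcl2l11. Without Casp1 and Casp4, pro-survival minus pro-death was -0.16 in WT and -0.29 in KO mice for the populations.

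**Figure D5:**
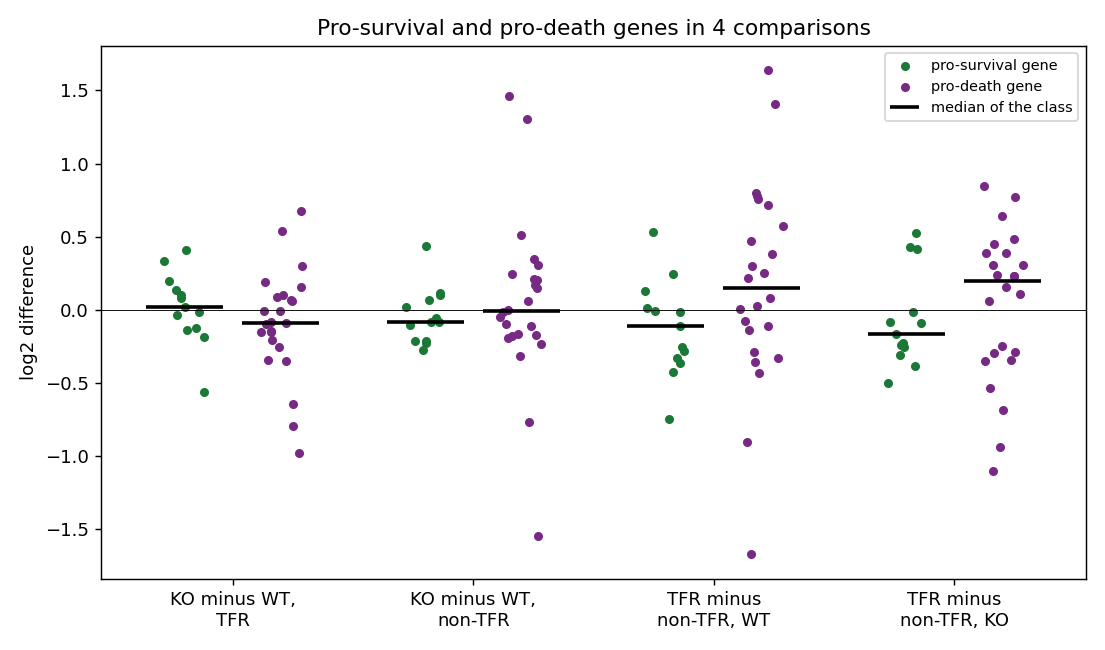
Differences (y axis, log2) of the 13 pro-survival and 24 pro-death members in the 4 comparisons (x axis); each point is a gene, black bars are class medians, horizontal scatter is only for display. Pro-survival medians lie below pro-death medians in the population comparisons (-0.26 in WT, -0.36 in KO mice), and the extreme points are pro-death genes.

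Cell division moved with part of these differences. The 17 measured genes of dividing cells were higher in TFR cells in all cases, with a median difference of 2.78 in WT and 1.77 in KO mice, and all were higher in KO non-TFR than in WT non-TFR cells (median 0.74). Their summed levels were 164.1 in KO TFR, 163.3 in WT TFR, 135.4 in KO non-TFR and 123.0 in WT non-TFR cells. Between KO TFR and WT TFR cells their median was 0.05, with 9 of 17 higher. The part of cell division in the results was not tested. All 10 genes of a handling and stress list were lower in TFR than in non-TFR cells in mice of both genotypes (median -0.45 in each), with Hspa1b and Hsp90aa1 among the lowest. Between genotypes the list was divided: the heat shock genes Hspa1a (1.38 in TFR, 0.87 in non-TFR cells) and Hspa1b (1.09 and 0.71) were higher in KO cells, and 6 of the 10 genes were lower in each population. The part of these shifts in the results was not tested.

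Summed levels of 9 myeloid and dendritic markers were 50.5 in KO TFR, 49.1 in WT TFR, 47.6 in KO non-TFR and 47.3 in WT non-TFR cells, in the same order as Casp1 and Casp4. Cd68 was the single marker of these above the expression limit, at 9.17 in KO TFR, 7.97 in WT TFR, 7.59 in KO non-TFR and 7.47 in WT non-TFR cells. Sums of 6 B cell markers were 34.5 in KO TFR, 33.7 in WT TFR, 33.4 in KO non-TFR and 33.0 in WT non-TFR cells. Of these markers, 3 were above the limit in KO TFR cells (Cd79b, Pax5 and Blk) and 1 on each other array. The B cell sums followed the order of Casp1 and Casp4 too, as did those of 4 plasma cell markers. Sums of 5 stroma and endothelium markers did not. The sum of 6 CD8 T and NK cell markers was 35.3 in KO TFR, 35.7 in WT TFR, 35.8 in KO non-TFR and 35.2 in WT non-TFR cells. Of these markers, Cd8b1 and Eomes were above the limit on all 4 arrays, and Cd8a, Ncr1 and Klre1 below it on all 4. The part of these in the results was not tested.

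Of 52 further genes of the same pathways, 45 were measured and 39 expressed. In KO TFR against WT TFR cells 3 of the 39 (7.69%) were at least 1.5-fold lower and 0 higher, with 1.56% and 2.16% of expressed genes as background. Those lower were Fasl, the Fas ligand (-1.24, with levels of 6.59 in KO TFR and 7.83 in WT TFR cells), the p53 target Sesn1 (-0.87) and the mitochondrial nuclease Endog (-0.69). In non-TFR cells, where 3.69% of expressed genes were higher and 1.09% lower, the survival gene Bcl2a1a (0.81), which has near-identical copies that may share its signal, and Birc5 (0.66) were higher in KO, and Foxo3, a transcription factor known to induce Bcl2l11, was lower (-0.62). In WT TFR against WT non-TFR cells 6 of 39 (15.4%, background 10.3%) were higher and 2 (5.13%, background 5.76%) lower, the lower ones being Foxo3 (-0.78) and Foxo1 (-0.76). Birc5, the IAP survivin that dividing cells make, was 2.78 higher. In KO mice 2 of 39 (5.13%, background 8.54%) were higher and 5 (12.8%, background 6.2%) lower, led by Birc5 (1.97) and Fasl (-1.23).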

How the data were processed

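Total RNA of sorted cells was measured on 4 arrays (Affymetrix Mouse Gene 2.0 ST), 1 per group, per the labels, and samples were grouped by title. The authors' deposited table holds a log2 value per probe and array, a scale read from its range (2.23 to 13.8). The submitters' processing notes name MAS5 but no version or role for it. How probes were summarized is not given in the sources, and detection calls were not used here. Array medians spanned 0.105, and all 41345 probes were quantile normalized with limma 3.58.1 in R 4.3.3, which also removes a real shift common to most genes.

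Gene names came from GEO's platform annotation, in which 23521 probes had 1 gene symbol, 1814 several and 16010 none. Differences are between single arrays, without a test, and their precision is limited by having 1 array per group. Folds of 1.5 and 2 were counted over expressed genes. The members, classes and lists were chosen with earlier results of these data known. All members could be named, and of the other pathway genes those expressed and at least 1.5-fold apart. Further pathway genes named (Tnf and Lta in the report, and several in the closing section) fall outside this rule and were chosen after their values were seen. Motifs were searched in the 250 bases before each start. The counting steps were tested on simulated data. Alternatives were other normalizations, probe rules, filters, fold limits and classes.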

Additional observations from a re-analysis of the deposited data

Results flagged for a closer look

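Tnfsf10, which encodes the death ligand TRAIL, had opposite genotype differences in the populations: -0.35 in TFR cells, where the level was 8.29 in KO and 8.64 in WT cells, and 0.51 in non-TFR cells, where it was 8.58 in KO and 8.07 in WT cells. The genotype difference in TFR cells minus that in non-TFR cells was -0.86, rank 137 from the lowest among expressed genes. This difference between the populations was not tested, since each group has 1 array. Casp1 and Casp4 had the next largest values of this kind among members, at -0.79 and -0.77, but were higher in KO cells of both populations.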

How the results depend on the processing

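Casp1, Casp4, Dapk1 and Bcl2l11 kept their direction in all 4 comparisons under 4 other normalizations, quantile normalization over single-gene probes and the mean of all probes of a gene. Genotype differences ranged from 0.62 to 0.67 for Casp1, 0.49 to 0.54 for Casp4 and -0.85 to -0.79 for Bcl2l11 in TFR cells, and from -1.59 to -1.54 for Dapk1 in non-TFR cells. As deposited, the population differences of these 4 genes moved by over 0.1 in both genotypes. For Bcl2l11 in KO mice the value was then -0.79, against -0.94. Of the single-gene differences followed under the alternatives, 28 moved by 0.1 or more and 308 did not. With a 2-fold limit and quantile normalization over all probes, members higher and lower numbered 0 and 0 for genotype in TFR cells, 2 and 1 for genotype in non-TFR cells, 2 and 1 for population in WT and 0 and 1 for population in KO mice. Among members above the 75th percentile of expression, which Dapk1 and Bcl2l11 do not reach, 0 were lower in each genotype comparison, 3 were higher and 1 lower for population in WT, and 0 were lower in KO mice. The share over all genes above that percentile was not counted, so these counts do not set the members apart. As deposited, 5 members were higher in TFR cells of KO mice. Pro-survival minus pro-death medians were -0.25 (genotype, non-TFR) and -0.65 (population, WT) above that percentile, and -0.23 (genotype, non-TFR) and -0.47 (population, KO) over the BCL2 family alone; the cause was not tested. In all, 17 counts and medians under the alternatives moved by over 1.5 times or 0.1 log2 units, and 109 did not. None of these medians over 0.1 in size changed sign, nor did any such single-gene difference of those followed. Single-gene differences of other members were not followed through all alternatives. The median over members of the genotype difference in TFR minus that in non-TFR cells, 0.01, was -0.01 with centring on the 75th percentile. Over expressed members alone, a setting added after seeing the data, no median moved. No paired analysis was possible because each group has 1 array. Signal over background is not known here, which limits what dim genes such as Bmf and Hrk can show.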

Other observations

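Further genes of survival signalling and of the p53 response showed a few differences of their own. All 7 measured survival signalling genes had lower values in KO TFR than in WT TFR cells, with a median of -0.19 and none at 1.5-fold (Nfkb2 at -0.01), in a comparison where 5114 of 11090 expressed genes were lower, and 3 of 7 were higher in KO non-TFR than in WT non-TFR cells (median -0.07). The kinase gene Pim3 had the lowest of these values in TFR cells at -0.45. The list includes Foxo1 (-0.25) and Foxo3 (-0.19), and Foxo3 is known to induce the pro-death gene Bcl2l11. It thus mixes outcomes, and its count does not describe survival genes alone. Foxo1 had levels of 9.94 in KO TFR, 10.19 in WT TFR, 10.73 in KO non-TFR and 10.94 in WT non-TFR cells, and Foxo3 followed the same order, with 7.48 in KO TFR, 7.68 in WT TFR, 7.84 in KO non-TFR and 8.45 in WT non-TFR cells. Bcl2l11 had this order too, as did 11.0% of expressed genes and 29.7% of expressed members. Any link of Foxo1 or Foxo3 with the level of Bcl2l11 was not tested.

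Of 10 measured genes of the p53 axis, 5 were higher and 5 lower in each genotype comparison, except that with quantile normalization over single-gene probes 3 were higher and 7 lower, and as deposited 4 higher and 5 lower, in KO non-TFR against WT non-TFR cells. The cell cycle inhibitor gene Cdkn1a was lower in all 4 comparisons, by -0.46 for genotype in TFR, -0.41 for genotype in non-TFR, -0.52 for population in WT and -0.56 for population in KO mice. Trp53inp1 was higher in all 4, from 0.26 to 0.75. The pyroptosis effector Gsdmd and the inflammasome adaptor Pycard, which work with caspase-1, had levels between 8.36 and 8.60 and between 10.13 and 10.42, and differed by at most 0.29 in any comparison, while Nlrp3 lay below the expression limit on every array.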
